A study of Mus musculus with 12 samples.

Results

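The genes described here encode factors that start new actin filaments: 6 subunits of the Arp2/3 complex (Actr2, Actr3, Arpc1b, Arpc2, Arpc3 and Arpc5), its activators Wasl and Wasf2, and the formins Diaph1 and Diaph3. Every chromatin region that the deposited table lists under 1 of these 10 gene names was taken, which gave 15 regions of 81995 in all and of 25045 listed with a gene. For each gene the region whose centre lay nearest the transcription start site was called its start site region, and the other 5 regions lay wholly inside Actr2, Arpc1b, Arpc2, Arpc3 or Arpc5. The remaining 5 genes had 1 region each.

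Actin monomers join into a filament slowly until a small seed has formed, and nucleators supply that seed. The Arp2/3 complex holds the actin-related proteins Arp2 and Arp3 beside structural subunits and starts a filament as a branch on the side of an existing one, once a nucleation-promoting factor of the WASP or WAVE family has activated it. Formins start straight filaments and stay at the growing end. In fibroblasts, branched networks fill the leading edge, while formin-made filaments feed stress fibres and filopodia.

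The assay was ATAC-seq, which reads out open chromatin by where Tn5 transposase can insert sequencing adapters. It was run on NIH/3T3, an immortalised line of mouse fibroblasts, with 3 libraries in each of 4 groups. WT cells have intact Actg1, the gene of cytoplasmic gamma-actin. In PTC1 cells 1 nt is inserted behind coding position 280 of Actg1, on one listed allele together with a substitution at position 280, and a premature stop codon follows in exon 3. In PTC2 cells 4036 nt are inserted behind position 1096, with the premature stop in exon 5, and in LD cells the full Actg1 locus is deleted. All mutations were made with CRISPR-Cas9, and the series asks what decay of the mutant mRNA contributes to transcriptional adaptation, in which related genes are raised. The labels call the libraries biological replicates of 25000 cells each but name no separate clones, so each allele was taken as 1 line and every p-value measures only the spread between these libraries.

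The values are read counts that the authors scaled to a common level and rounded, called normalized read counts here. They summed to 31.29 to 34.8 M (mega) per library, from an estimated 25 to 44.97 M reads in regions. Both quantities went with the group. Every PTC2 library had at least 35.81 M estimated reads, while no library of another group exceeded 35.14 M. The sums of LD reached at most 32.41 M, and the lowest sum outside LD was 32.74 M. Depth could thus not be separated from group for PTC2, nor could the sum of values for LD. Across regions on the log2 scale, Pearson's r was 0.982 to 0.987 between libraries of one group and 0.817 to 0.933 between libraries of different groups. No region was listed with Actg1, so the alleles could not be checked at their own locus. Of 10 fibroblast markers, 9 had a start site region, all but Dcn, with WT means from 192.7 to 5094 and a median of 1576. Of 10 markers of other cell types, 6 had one (Krt8, Ptprc, Cd68, Cdh5, Myod1 and Sox10). Their WT means ran from 17.33 to 562.7 with a median of 190.5. The epithelial Epcam and Cdh1, the endothelial Pecam1 and the muscle regulator Myog had none.

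Promoter sequence of 4 of the 10 genes is shown because they bracket the range of response. Among the genes whose promoter could be shown, Wasl and Arpc5 had the largest changes against WT, and Wasf2 and Actr3 the smallest. Each sequence is the stretch just before the start site, 5′ to 3′ on the strand of the gene, from RefSeq on GRCm38.p6, the assembly that mm10 names. Capitals mark matches on either strand to any of 9 motifs searched: SP/KLF (GGGCGG), ETS (CCGGAAG), AP-1 (TGACTCA), TEAD (GGAATG), NRF1 (GCATGCG), YY1 (AAGATGG), CRE (TGACG), NFY (CCAAT) and the CArG box that the actin-responsive factor SRF binds.
Wasl, minus strand of chr6:24665010-24665245: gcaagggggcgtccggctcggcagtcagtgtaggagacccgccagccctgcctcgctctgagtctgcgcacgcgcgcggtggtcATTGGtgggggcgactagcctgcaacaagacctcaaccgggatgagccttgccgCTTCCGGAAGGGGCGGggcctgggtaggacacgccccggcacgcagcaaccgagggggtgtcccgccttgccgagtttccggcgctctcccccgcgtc
Arpc5, plus strand of chr1:152766292-152766541: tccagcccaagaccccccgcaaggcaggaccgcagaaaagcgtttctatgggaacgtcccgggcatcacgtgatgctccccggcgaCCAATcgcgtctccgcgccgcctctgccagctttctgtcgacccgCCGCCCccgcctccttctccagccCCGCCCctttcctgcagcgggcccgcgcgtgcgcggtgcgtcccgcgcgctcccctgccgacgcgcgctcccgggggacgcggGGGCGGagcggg
Wasf2, plus strand of chr4:133130383-133130504: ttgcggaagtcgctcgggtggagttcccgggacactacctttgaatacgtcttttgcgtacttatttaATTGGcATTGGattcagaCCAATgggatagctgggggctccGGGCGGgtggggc
Actr3, minus strand of chr1:125435728-125435977: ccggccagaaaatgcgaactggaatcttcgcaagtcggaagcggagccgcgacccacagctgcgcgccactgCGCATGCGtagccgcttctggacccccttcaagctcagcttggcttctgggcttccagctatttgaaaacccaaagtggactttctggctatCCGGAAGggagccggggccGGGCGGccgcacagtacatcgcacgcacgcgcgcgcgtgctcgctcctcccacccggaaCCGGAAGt
The Wasl stretch held 1 GGGCGG, 2 overlapping CCGGAAG matches and 1 CCAAT in reverse. Arpc5 held 3 GGGCGG and 1 CCAAT, Wasf2 held 3 CCAAT and 1 GGGCGG, and Actr3 held 2 CCGGAAG, 1 GGGCGG and a palindromic GCATGCG core counted on both strands.

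Over the full promoter windows, from 250 bases before to 50 after the start, 9 of the 10 genes had an entry and all 9 windows lay wholly inside the start site region. GGGCGG was found in 8 of 9, every one but Diaph3, against 61.8% of the 9445 genes with a start site region and 35.7% of all 32851 windows. CCGGAAG was found in 4 (Wasl, Actr2, Actr3 and Arpc3), against 16% of those genes and 8.86% of all windows, and GCATGCG in 3 (Actr3, Arpc2 and Arpc3), against 5.97% and 3.58%. CCAAT was in 5 against 38.3% and 37.4%, TGACG in 3 against 29.7% and 20.8%, and GGAATG in 1, Arpc2, against 12.4% and 14.7%. The letters of TGACTCA (4.04% and 5.2%), AAGATGG (6.84% and 6.34%) and the CArG box (1.42% and 1.63%) were in none of the 9 windows. GC content ran from 52.67% in Arpc3 to 73.67% in Arpc5 with a median of 69.33%, against a median of 60.33% over genes with a start site region, and the observed to expected CpG ratio had a median of 1 against 0.736. These matches describe the letters and were not tied to any factor.

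In WT cells the nucleator start sites were mostly wide open. Per kb of region, the WT normalized read count was 1894 ± 121 (SD, n = 3) at Diaph1, 1855 ± 172 at Diaph3, 1758 ± 72.7 at Arpc5, 1696 ± 78.6 at Actr2, 1654 ± 101 at Wasl and 1510 ± 74.5 at Arpc1b. In that order the libraries of each gene overlapped those of the next. Actr3 followed with 1232 ± 52.6 per kb, Wasf2 with 1094 ± 17.5, Arpc2 with 835 ± 58.4 and Arpc3 with 486 ± 37.1, and each of these steps exceeded the spread between libraries. The median over all 12338 start site regions was 845 per kb, and 8 of the 10 genes lay above it. Arpc3, the gene of a small structural subunit, was the least open of the set and stood at the 30.5th percentile. The regions were 871 to 1636 bp wide, with centres 28 to 535 bp from the start site and 0.5 to 0.9 of their width inside the gene. The coefficient of variation between the 3 libraries of a group ran from 0.524 to 13.1%, with a median of 5.27%.

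**Figure D1:**
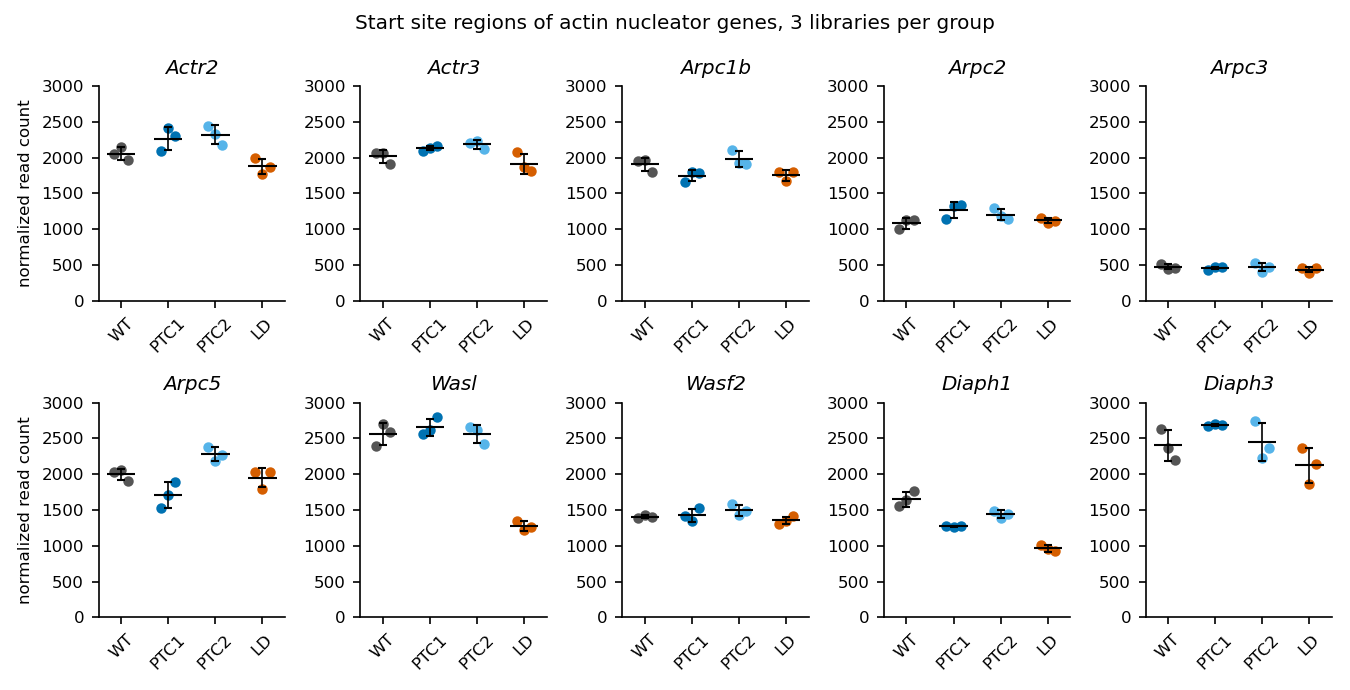
Normalized read count at the start site region of each of the 10 genes (vertical axis, from 0) in WT, PTC1, PTC2 and LD. Points are libraries and bars are the mean ± SD of 3; Wasl in LD and Diaph1 in LD and PTC1 are among the sets of points that stand below every WT library.

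The largest changes of the 10 genes were drops at Wasl and Diaph1 in the cells without the Actg1 locus. Wasl, which encodes N-WASP and activates the Arp2/3 complex downstream of Cdc42, fell to 49.9% of its WT level in LD, and Diaph1, a formin that feeds stress fibres, fell to 58.5%. Of the 10 start sites, 3 were called lower and none higher in LD against WT (limma, Benjamini-Hochberg adjusted p under 0.05 over 81985 regions). Of all start sites tested, 29.5% were called lower and 16.9% higher in that comparison. In PTC1 against WT, 3 of 10 were called higher and 2 lower, where 33.3% of all start sites were called higher and 28.5% lower. In PTC2 against WT, 2 were called higher and 1 lower, where 37.4% and 16.3% were. The median of the absolute log2 change over the 10 genes was 0.13, 0.10 and 0.12 for PTC1, PTC2 and LD, beside 0.25, 0.21 and 0.19 over all start sites. Changes under 0.25 on the log2 scale were found for 9 of 10 genes in PTC1, all 10 in PTC2 and 8 of 10 in LD, beside 49.2%, 57.8% and 60.9% of all start sites; the 10 genes were also more open than most, which was not matched here. All 3 libraries of PTC1 lay above all of WT at 3 of the 10 genes and below at 2, beside 35.4% and 29.9% of all start sites. For PTC2 these were 4 and 1 genes (41.0% and 17.5%), for LD 0 and 2 (19.9% and 32.5%), and for PTC1 set against PTC2 0 and 3 (22.2% and 35.1%). With libraries scaled to the same median, start sites called higher and lower went from 4620 and 2015 to 6219 and 1278 in PTC2 and from 2087 and 3635 to 1443 and 4643 in LD, and after loess normalization they were 3677 and 2301 in LD.

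Among the Arp2/3 subunits, Actr2 encodes Arp2, which forms the first actin-like pair of a branch together with Arp3. Its start site region (chr11:20112276-20113488, ENSMUSG00000020152) had 2047, 2155 and 1965 normalized reads in WT, 2089, 2408 and 2296 in PTC1, 2448, 2328 and 2179 in PTC2, and 1992, 1778 and 1865 in LD. The PTC2 libraries all lay above WT, while 1 PTC1 library and 1 LD library lay within the WT range. The log2 change was 0.14 ± 0.06 (SE, n = 3 per group, limma adjusted p = 0.0495) in PTC1, 0.17 ± 0.06 (adjusted p = 0.0159) in PTC2 and -0.13 ± 0.06 (adjusted p = 0.077) in LD. The PTC1 call was lost when any of 6 single libraries was left out (values 0.09 to 0.19), and without WT replicate 3 or PTC2 replicate 1 so was the PTC2 call. Scaling to the same median ended the PTC1 call (0.13, adjusted p = 0.103), and loess (0.11, adjusted p = 0.0502) and centring on the chromosome (0.03, adjusted p = 0.68) ended the PTC2 call. PTC2 replicate 1, whose values sum to more than those of any other library, was the highest of its group at 9 of the 10 genes, and its part in the PTC2 calls is given by the values without it.

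Actr3, the gene of Arp3, had 2064, 2068 and 1917 normalized reads in WT, 2099, 2136 and 2168 in PTC1, 2199, 2233 and 2121 in PTC2, and 2074, 1866 and 1811 in LD at chr1:125434569-125436205. Both premature stop lines lay above all WT libraries, and LD overlapped WT. No change against WT passed the test (log2 0.08, 0.12 and -0.07; limma adjusted p = 0.203, 0.0769 and 0.283). Alternatives made calls in both directions. In PTC1 these were 0.12 after loess (adjusted p = 0.0262) and -0.24 centred within 5 Mb (adjusted p = 0.000621). In PTC2 it was 0.21 with the same median (adjusted p = 0.00694). In LD they were -0.21 centred on the chromosome (adjusted p = 0.00353) and 0.17 within 1 Mb (adjusted p = 0.0272).

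Arpc2, whose product with that of Arpc4 forms the core that grips the mother filament, had 997, 1128 and 1129 normalized reads in WT at chr1:74235969-74237268. It had 1148, 1319 and 1340 in PTC1, 1290, 1187 and 1140 in PTC2, and 1161, 1090 and 1118 in LD. The premature stop lines lay above every WT library, and LD overlapped WT. Arpc2 rose in PTC1 by 0.23 ± 0.07 (adjusted p = 0.00706), and neither the PTC2 value (0.15, adjusted p = 0.0649) nor the LD value (0.05, adjusted p = 0.571) passed. The PTC1 call was lost without WT replicate 1, and when values were centred on the regions within 1 Mb (0.05, adjusted p = 0.559). Alternatives also made calls, in PTC2 with the same median (0.25, limma adjusted p = 0.00749) and in LD after loess (0.17, adjusted p = 0.0336).

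Arpc5, the gene of a small regulatory subunit, moved in opposite directions in the premature stop lines. It had 2031, 2054 and 1901 normalized reads in WT, 1526, 1709 and 1886 in PTC1, 2381, 2182 and 2270 in PTC2, and 2024, 1796 and 2029 in LD at chr1:152766029-152767164. All PTC1 libraries lay below all WT libraries, all PTC2 libraries above them, and LD overlapped WT. Arpc5 fell in PTC1 by 0.23 ± 0.07 (adjusted p = 0.00342) and rose in PTC2 by 0.19 ± 0.07 (adjusted p = 0.0142), and the direct difference of PTC1 from PTC2 was -0.42 ± 0.07 (adjusted p = 2.15e-06). In PTC1 against PTC2, 3 of the 10 genes were called lower and none higher, where 33.2% of all start sites were called lower and 21.1% higher. The PTC1 call against WT was lost without PTC1 replicate 1, and the PTC2 call without WT replicate 3 or PTC2 replicate 1. Centred on the regions within 1 Mb, the change of Arpc5 was -0.0040 in PTC1 and -0.0097 in PTC2, and the difference of PTC1 from PTC2 was 0.0057 (adjusted p = 0.951). Within 5 Mb that difference was -0.0028 (adjusted p = 0.975). In LD the change of -0.035 against WT did not pass (limma adjusted p = 0.69). Centring made it a call: -0.17 on the chromosome (adjusted p = 0.0395), -0.32 within 1 Mb (adjusted p = 0.000455) and -0.28 within 5 Mb (adjusted p = 0.00093).

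Arpc1b, which encodes the subunit that activators contact, was among those 3. Its values were 1949, 1969 and 1797 in WT, 1658, 1797 and 1784 in PTC1, 2106, 1927 and 1911 in PTC2, and 1803, 1668 and 1793 in LD at chr5:145113895-145115157. PTC1 lay below every PTC2 library, yet both overlapped or touched WT. The difference of PTC1 from PTC2 was -0.18 ± 0.06 (adjusted p = 0.0082), a call lost without PTC1 replicate 1 or PTC2 replicate 1 and after loess (-0.087, adjusted p = 0.118). Against WT the changes were -0.13 (adjusted p = 0.0646), 0.06 (adjusted p = 0.422) and -0.12 (adjusted p = 0.0979) for PTC1, PTC2 and LD, and none passed. Arpc3 overlapped between all groups, with 516, 451 and 456 in WT, 438, 468 and 469 in PTC1, 531, 408 and 477 in PTC2, and 459, 395 and 457 in LD at chr5:122391562-122392538. Its largest change against WT was -0.12 in LD (95% interval -0.32 to 0.08, adjusted p = 0.323).

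The activators parted ways. Wasl had 2388, 2695 and 2583 normalized reads in WT, 2563, 2613 and 2791 in PTC1, 2661, 2613 and 2421 in PTC2, and 1348, 1216 and 1265 in LD at chr6:24663986-24665531. The 9 other libraries lay close together, and every LD library lay near the middle of the way from 0 to the WT level. Wasl fell in LD by 1.00 ± 0.06 on the log2 scale (adjusted p = 1.77e-14), and neither PTC1 (0.06, adjusted p = 0.409) nor PTC2 (0.01, adjusted p = 0.937) passed. The drop was -0.85 after loess, -0.64 when centred on its chromosome and -0.27 when centred on the regions within 5 Mb, and it had no value within 1 Mb. Wasf2, which encodes WAVE2, the Rac-driven activator of the leading edge, had 1386, 1431 and 1406 in WT, 1411, 1342 and 1526 in PTC1, 1581, 1424 and 1481 in PTC2, and 1310, 1348 and 1411 in LD at chr4:133129889-133131176. All groups overlapped WT, and its changes of 0.02, 0.09 and -0.05 had 95% intervals that lay within -0.18 and 0.21.

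Of the formins, Diaph1 was lower in all 3 mutants, although centring on its chromosome turned the sign in PTC1 and PTC2. It had 1552, 1636 and 1762 normalized reads in WT, 1279, 1266 and 1270 in PTC1, 1491, 1382 and 1450 in PTC2, and 1017, 959 and 922 in LD at chr18:37934891-37935762. No mutant library reached the lowest WT value, and PTC2, PTC1 and LD followed each other downwards without overlap. Diaph1 fell by 0.37 ± 0.06 in PTC1 (adjusted p = 7.07e-06), by 0.19 ± 0.06 in PTC2 (adjusted p = 0.00905) and by 0.77 ± 0.06 in LD (adjusted p = 2.41e-11). The PTC2 call was lost without WT replicate 3 or PTC2 replicate 2 and with libraries scaled to the same median (-0.098, adjusted p = 0.221). When values were centred on the chromosome, the changes in PTC1 and PTC2 turned to 0.09 and 0.12, and LD stayed lower at -0.23. The difference of PTC1 from PTC2 was -0.18 (adjusted p = 0.0137), a call lost without PTC2 replicate 1, after loess (-0.098, adjusted p = 0.14) and when centred on the chromosome (-0.027, adjusted p = 0.73).

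Diaph3, a formin of filopodia and the cell cortex, varied widely between the libraries of WT, PTC2 and LD. It had 2635, 2371 and 2194 in WT, 2671, 2706 and 2689 in PTC1, 2741, 2229 and 2362 in PTC2, and 2360, 1869 and 2137 in LD at chr14:87140311-87141605. The PTC1 libraries stood together just above the highest WT library, and the other groups overlapped. Diaph3 rose in PTC1 by 0.17 ± 0.07 (adjusted p = 0.0477) and fell in LD by 0.18 ± 0.07 (adjusted p = 0.0437), both near the threshold. The PTC1 call was lost when any of 7 single libraries was left out (0.11 to 0.24) and the LD call with any of 5 (-0.26 to -0.09). After loess normalization the LD change was -0.02, and centred on the chromosome the changes were 0.076 in PTC1 (adjusted p = 0.384) and -0.035 in LD (adjusted p = 0.721). Centred on the regions within 5 Mb, PTC1 was called lower (-0.35, limma adjusted p = 0.000542) and LD higher (0.47, adjusted p = 2.62e-05). PTC2, with 0.02 in the main fit (adjusted p = 0.791), was called higher within 5 Mb (0.63, adjusted p = 1.09e-07) and 1 Mb (0.20, adjusted p = 0.0161).

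The mean of PTC1 and PTC2 was also set against LD, the contrast between the lines that keep a mutant Actg1 gene and the line that lacks it. Of the 10 start sites 5 were called higher and none lower, where 45.2% of all start sites were called higher and 21.7% lower. These were Wasl (1.03 ± 0.05, adjusted p = 7.92e-17), Diaph1 (0.49 ± 0.05, adjusted p = 5.01e-09), Actr2 (0.29 ± 0.05, adjusted p = 2.35e-05), Diaph3 (0.28 ± 0.06, adjusted p = 0.000373) and Actr3 (0.17 ± 0.05, adjusted p = 0.00256). All libraries of both premature stop lines lay above all LD libraries at each of these but Diaph3, so 4 of 10 lay wholly above, where 31.3% of all start sites did and 10.7% lay wholly below. Arpc2, Wasf2, Arpc3, Arpc1b and Arpc5 had differences of 0.14, 0.11, 0.09, 0.08 and 0.02 that did not pass. With libraries scaled to the same median, 9 of the 10 genes were called. Under that scaling the median change of all regions was 0.11 in this comparison, beside -0.0044 in the main fit. After loess, Actr3 (0.017, adjusted p = 0.735) and Diaph3 (0.10, adjusted p = 0.0774) were no longer called, and Arpc5 was called lower (-0.14, adjusted p = 0.0123). Centring on the chromosome also ended the call at Diaph3 (0.11, adjusted p = 0.116).

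In PTC1 and PTC2 the size and sign of most changes were close to those of other start sites around each gene. In LD this held for fewer genes. Within 5 Mb on either side, 9 of the 10 genes had 16 to 139 other start sites, and Diaph3 had 2 and was left out. Across these 9 genes the change of the gene and the median change of its surroundings correlated (Pearson's r = 0.976 for PTC1, 0.859 for PTC2 and 0.958 for LD), as a description over points that share libraries and the WT samples. In LD, Wasl (-1 beside -0.75) and Diaph1 (-0.77 beside -0.58) lay far from the other genes, and r was not computed without them. The gene and the median of its surroundings differed by less than 0.15 for 9, 8 and 6 of the 9 genes in PTC1, PTC2 and LD. In PTC1 all 9 genes lay within the middle quartiles of their surroundings, in PTC2 7 and in LD 5. By definition, about as many surrounding start sites lie inside those quartiles as outside. Arpc5 and its 42 surrounding start sites moved alike in the premature stop lines, with -0.23 beside a median of -0.28 in PTC1 and 0.19 beside 0.19 in PTC2. In LD Arpc5 had -0.035 beside 0.043, below the lower quartile of -0.027, and Wasf2 had -0.054 beside 0.050. Arpc2 had 0.23 beside 0.21 in PTC1 (58 others), but in PTC2 it had 0.153 beside 0.30, below the lower quartile of 0.166. Actr2 had 0.14 beside 0.16 in PTC1 and 0.17 beside 0.21 in PTC2 (33 others). Arpc1b differed from its 78 surrounding start sites: in PTC2 it had 0.06 beside -0.11 and in LD -0.12 beside -0.29. Between PTC1 and PTC2 it had -0.18 beside 0.003.

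**Figure D2:**
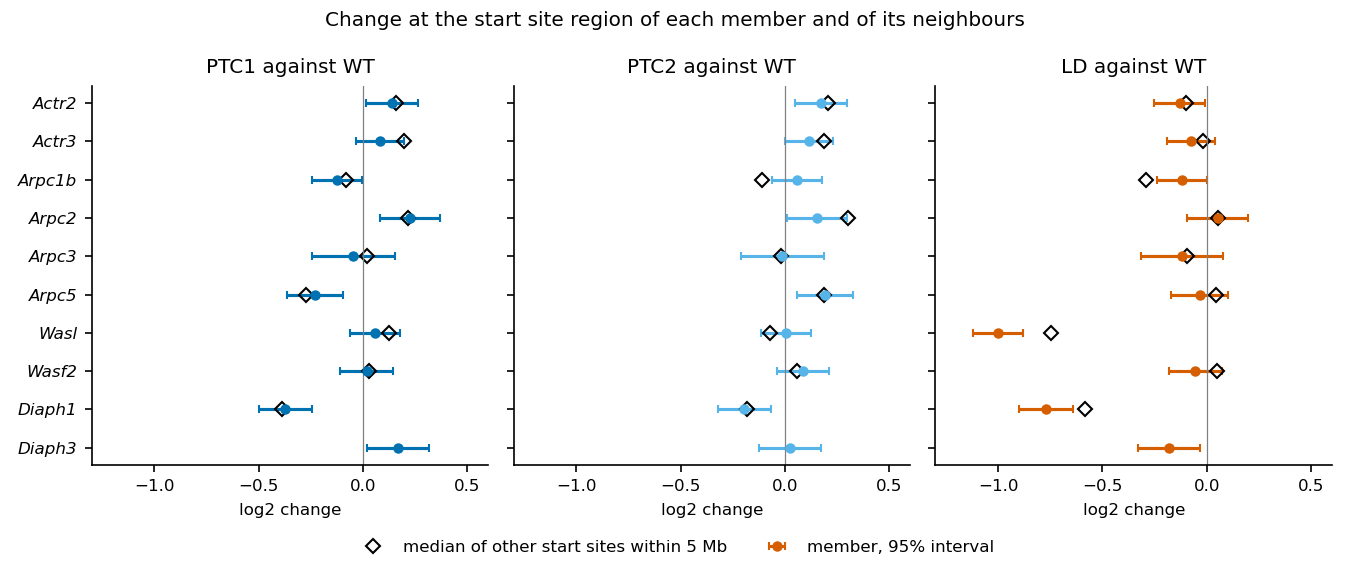
Log2 change against WT (horizontal axis) at the start site region of each gene in PTC1, PTC2 and LD, with its 95% interval, and as open diamonds the median of the other start sites within 5 Mb (none drawn for Diaph3). Wasl in LD lies farthest from 0, below the median of -0.75 around it.

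Both large falls in LD lay in stretches that were lower as a whole. Of the 27 other start sites within 5 Mb of Wasl, 24 were called lower in LD, with a median of -0.75 and quartiles of -0.89 and -0.60, and 3 had a change at or below that of Wasl. In 10 Mb stretches of chromosome 6 the median of all start sites was -0.83 from 0 to 10 Mb, -0.87 from 10 to 20 Mb and -0.76 from 20 to 30 Mb, where Wasl lies, and it was between -0.57 and -0.11 in each stretch from 30 to 150 Mb. Of the 66 other start sites within 5 Mb of Diaph1, 51 were called lower in LD (median -0.58), 53 in PTC1 (median -0.39) and 32 in PTC2 (median -0.18). Diaph1 itself was at -0.77, -0.37 and -0.19, so in the premature stop lines it sat at the level of its surroundings and in LD below their lower quartile of -0.73. Over all start sites of chromosome 18 the median change was -0.38 for PTC1, -0.18 for PTC2 and -0.61 for LD. Centred on the regions within 5 Mb, an alternative chosen after seeing the data, the LD changes were -0.27 for Wasl and -0.21 for Diaph1, and both were still called. The part of the whole stretches in the changes of Wasl and Diaph1 was not tested beyond these values, and what sets the level of a stretch was not measured.

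**Figure D3:**
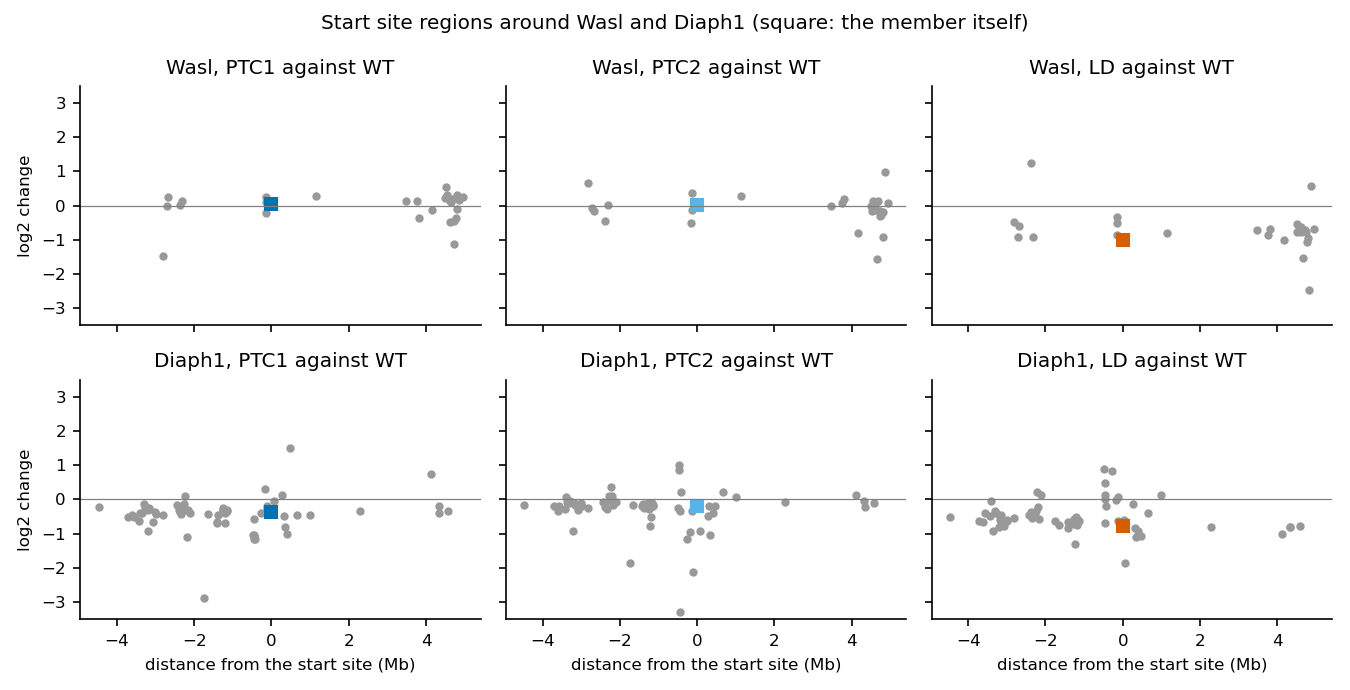
Log2 change against WT (vertical axis) of start site regions within 5 Mb of Wasl (top) and Diaph1 (bottom) by distance from the start site in Mb, in PTC1, PTC2 and LD. The square is the gene itself and grey points are other genes, most of which lie below 0 in LD around both.

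The 3 start sites most like that of Wasl over the 12 libraries were also on chromosome 6. By Pearson's r of log2 values they were St7 and Glcci1 (r = 0.994 each) and Umad1 (r = 0.993). Their means were 2007 in WT and 1133 in LD for St7, 2634 and 1449 for Glcci1, and 2568 and 1338 for Umad1. In each, all LD libraries lay below all others, as at Wasl. Of the 20 most alike, 13 were on chromosome 6 and 7 on chromosome X. Among the latter, named after their values were seen, Ids (r = 0.989) went from 487 in WT to 249 in LD and Jade3 (r = 0.987) from 1683 to 856.

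Regions inside 5 of the subunit genes gave a second reading. Of all listed regions other than start site regions, 60% were called in PTC1 against WT, 55.7% in PTC2 and 43.9% in LD, and of these 5 regions 2, 2 and 4 were. Between the mean of the premature stop lines and LD, 61.5% were called and 3 of the 5 regions were, and between PTC1 and PTC2 60.5% and 2 of the 5 (Arpc1b -0.21 and Arpc5 -0.39). The region inside Arpc2 (chr1:74240209-74240593, 4317 bp from the start) had 189, 158 and 165 normalized reads in WT, 113, 151 and 138 in PTC1, 143, 139 and 108 in PTC2, and 259, 231 and 213 in LD. Premature stop lines lay below WT and LD above it, with no overlap. It fell by 0.35 ± 0.14 in PTC1 (adjusted p = 0.0336) and by 0.40 ± 0.14 in PTC2 (adjusted p = 0.0187), rose by 0.45 ± 0.14 in LD (adjusted p = 0.00989), and stood -0.83 ± 0.12 lower in the mean of the premature stop lines than in LD (adjusted p = 1.02e-06). The calls were lost without WT replicate 1 or 3 or PTC1 replicate 1 in PTC1, without WT replicate 1 or PTC2 replicate 3 in PTC2, and without LD replicate 1 in LD, with the direction kept in each. They were also lost after loess in PTC1 (-0.26, adjusted p = 0.129) and PTC2 (-0.30, adjusted p = 0.0731), with the same median in PTC2 (-0.30, adjusted p = 0.0717), and centred on the chromosome in LD (0.32, adjusted p = 0.0644).

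The region inside Actr2 (chr11:20107783-20108022, 5010 bp from the start) had low values of 85, 66 and 69 in WT, 72, 102 and 68 in PTC1, 72, 82 and 91 in PTC2, and 119, 121 and 128 in LD. Only the LD libraries stood apart from WT. It rose in LD by 0.74 ± 0.18 (adjusted p = 0.00112), where the start site of the same gene had -0.13. The large second region of Arpc1b (chr5:145116199-145117122, 2446 bp) had 1328, 1281 and 1254 in WT, 1022, 1116 and 954 in PTC1, 1203, 1130 and 1228 in PTC2, and 955, 958 and 961 in LD. Every mutant library was below every WT library. It fell by 0.32 ± 0.07 in PTC1 (adjusted p = 0.000102) and by 0.43 ± 0.07 in LD (adjusted p = 4.09e-06), and in PTC2 its change of -0.12 did not pass (adjusted p = 0.126).

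The region inside Arpc5 (chr1:152768134-152768396, 1723 bp) had 255, 282 and 280 in WT, 299, 310 and 289 in PTC1, 341, 427 and 412 in PTC2, and 333, 368 and 345 in LD. All mutant libraries lay above WT. It rose by 0.52 ± 0.10 in PTC2 (adjusted p = 5.84e-05) and by 0.36 ± 0.10 in LD (adjusted p = 0.00469), and PTC1 did not pass (0.14, adjusted p = 0.245). PTC1 was called higher after loess (0.24, adjusted p = 0.044) and when centred within 1 Mb (0.37, adjusted p = 0.0027) or 5 Mb (0.46, adjusted p = 0.00033). The median change of the 137 other regions within 1 Mb was 0.29 in LD, and the LD call was lost when values were centred on the chromosome (0.22, adjusted p = 0.0717), within 1 Mb (0.080, adjusted p = 0.552) or within 5 Mb (0.11, adjusted p = 0.392). The small region inside Arpc3 (chr5:122394006-122394157, 2204 bp) ran from 42 to 49 in WT and from 49 to 67 in the mutants, and no change passed.

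The level of the second region relative to the start site region of the same gene was then tested in 3261 genes that had both. This test was added after the values were seen. The log2 ratio fell at Arpc2 by 0.58 ± 0.13 in PTC1 (limma adjusted p = 0.00478) and by 0.55 ± 0.13 in PTC2 (adjusted p = 0.00745) and rose by 0.40 ± 0.13 in LD (adjusted p = 0.0483), and it rose at Actr2 by 0.87 ± 0.18 in LD (adjusted p = 0.00568). The ratio at Arpc1b fell by 0.31 ± 0.09 in LD (adjusted p = 0.0347). Over all these genes 43.5% were called in PTC1, 39.5% in PTC2 and 24.3% in LD, and of the 5 genes 1, 1 and 3 were. Between the mean of the premature stop lines and LD the ratio differed by -0.97 ± 0.12 at Arpc2 (adjusted p = 5.87e-05) and by -0.89 ± 0.15 at Actr2 (adjusted p = 0.000685), where 47.2% of genes were called. Between PTC1 and PTC2 none of the 5 was called, with unadjusted p-values from 0.587 to 0.999, where 46.6% of genes were. The LD calls at Arpc2 and Arpc1b were lost when any of 10 and any of 6 single libraries was left out (0.32 to 0.54 and -0.34 to -0.29), while the calls at Arpc2 in the premature stop lines and at Actr2 held in each such fit.

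**Figure D4:**
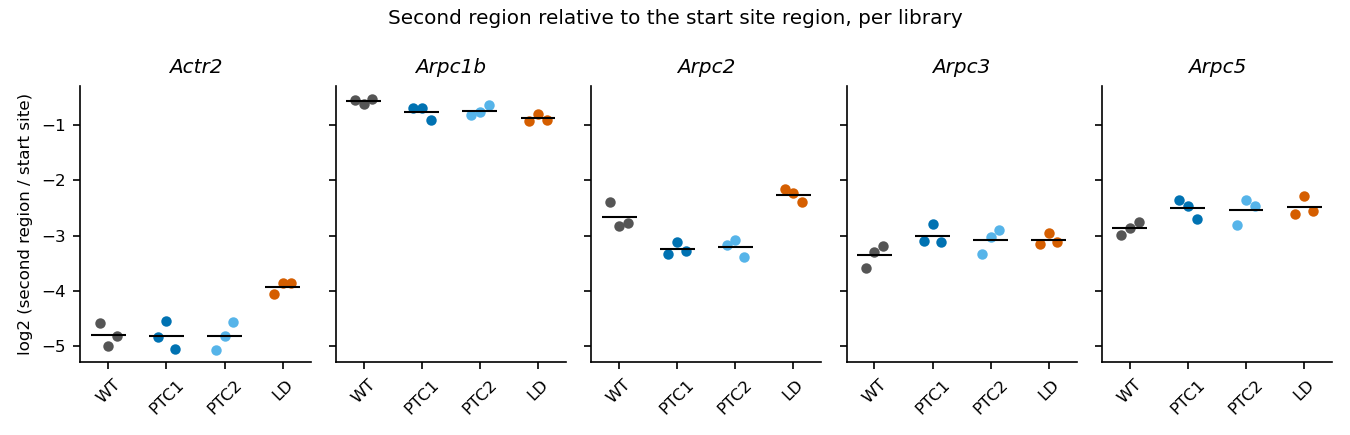
Log2 ratio of the second region to the start site region (vertical axis) in each library for the 5 subunit genes with both regions; bars are group means of 3. At Arpc2 the premature stop lines lie below WT and LD above, and at Actr2 the LD libraries lie above all others.

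The wider nucleation machinery was read from lists of 76 genes that include the 10; 64 had a start site region. Without the 10 genes, 54 were read, of which PTC1 had 15 called higher and 16 lower, PTC2 had 16 and 7, and LD had 9 and 18. These are 27.8% and 29.6% of the 54 genes in PTC1, 29.6% and 13% in PTC2, and 16.7% and 33.3% in LD, beside shares of all start sites of 33.3% and 28.5%, 37.4% and 16.3%, and 16.9% and 29.5%. The counts moved with the processing. Over all 64 genes they were 18 higher and 18 lower in PTC1, and the alternatives that kept all libraries gave 11 to 24 and 10 to 22. For PTC2 they were 18 and 8, with 12 to 32 and 3 to 10, and for LD 9 and 21, with 4 to 23 and 12 to 29. Subunits of the Arp2/3 complex (8 read) had 2 higher and 3 lower in PTC1, 2 higher and none lower in PTC2, and none called in LD, where only Actr2 had an unadjusted limma p under the 0.05 threshold. Activators and their complexes (19 read) had 4 and 4, 7 and 2, and 3 and 6. Inhibitors and branch removers (10 read) had 4 and 2, 3 and 0, and 1 and 3. Formins (12 read) had 5 and 3, 4 and 3, and 1 and 8, with a median log2 change of 0.06, 0.12 and -0.18 beside 0.03, 0.10 and -0.05 over all start sites. After loess normalization the median of all start sites in LD was 0.06. No formin median was computed after loess, so the -0.18 of the main fit cannot be set beside it.

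Among the list genes named by lowest adjusted p, the largest changes were at start sites with low values in WT. Daam2, a formin gene of Wnt signalling, had a WT mean of 127 ± 16, which compares with 894 ± 27.2 for PTC1, 293 ± 23 for PTC2 and 92.7 ± 15.5 for LD (SD, n = 3). It rose by 2.81 in PTC1 (adjusted p = 9.75e-18) and by 1.20 in PTC2 (adjusted p = 1.54e-09). Fmn1, a formin of cell junctions and limb development, had 126 ± 22.3 in WT, against 884 ± 66.1 in PTC1 and only 30.3 ± 7.57 in PTC2, a rise of 2.81 (adjusted p = 1.35e-14) and a fall of 2.04 (log2 -2.04, adjusted p = 1.89e-11). The premature stop lines thus stood on opposite sides of WT at Fmn1 and on the same side at Daam2. Actr3b, the gene of a second Arp3, went from 218 ± 14 to 33.7 ± 10.6 in PTC1 (log2 -2.70, adjusted p = 1.6e-14), while Actr3 itself did not pass in that line.

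Cyfip2, a subunit of the WAVE complex that holds Wasf proteins inactive, had a WT mean of 72.7 ± 7.23 and rose in each mutant, to 369 ± 2.52 for PTC1, 143 ± 22.2 for PTC2 and 137 ± 19.2 for LD. The log2 changes were 2.33, 0.96 and 0.90. Rhob, the gene of a small GTPase, fell in each from 3335 ± 138 to 2123 ± 43.3, 2773 ± 194 and 2614 ± 278 (log2 -0.65, -0.27 and -0.36). Further calls by the naming rule were Daam1 in PTC1 (log2 -0.53), the adaptor gene Nck2 (0.52) and Baiap2, which encodes IRSp53 (-0.28), in PTC2, and in LD the coronin gene Coro2b (1.12), Fnbp1 (0.45), the WASH complex gene Washc2 (-0.34) and the tandem nucleator Spire1 (-0.62). Spire1 lies on chromosome 18 and Washc2 on chromosome 6, whose start sites were lower in LD as given above.

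**Figure D5:**
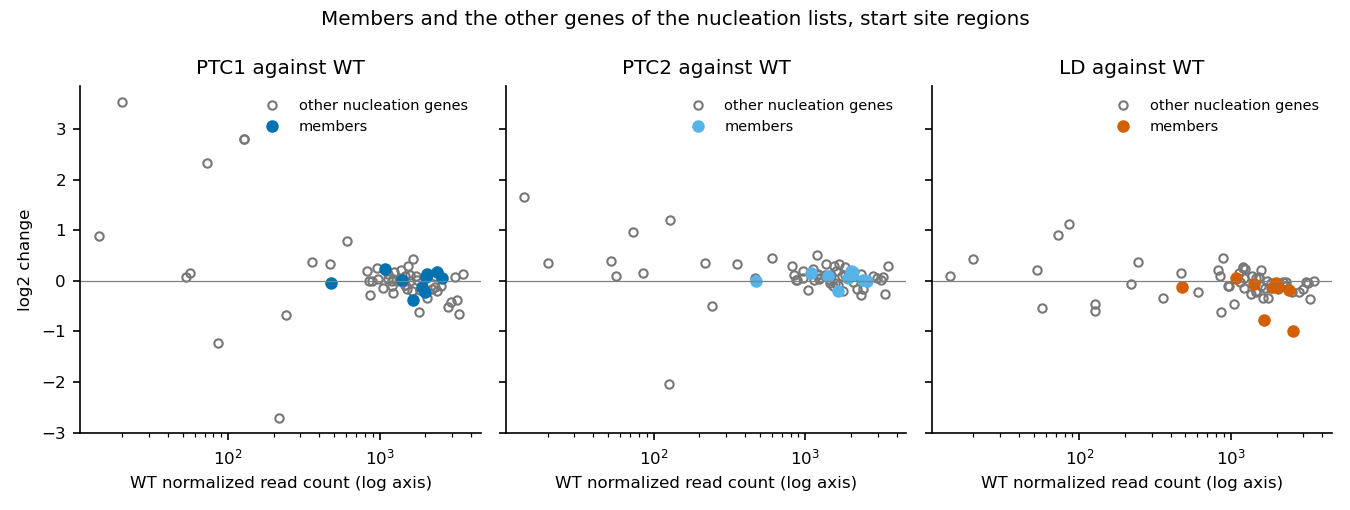
Log2 change against WT (vertical axis) by WT normalized read count (horizontal log axis) at start site regions of the 10 genes (filled) and the other nucleation genes (open), in PTC1, PTC2 and LD. The open points farthest from 0 lie at low WT values, and Wasl in LD, at a WT mean of 2555, is the filled point nearest the bottom.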

How the data were processed

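ATAC-seq was made in 12 libraries of NIH/3T3 cells (30 min at 37 °C). Per the submitters' processing notes, the authors used build mm10, Picard 2.25.5, Trimmomatic 0.39, DESeq2 1.30.1 and STAR 2.7.10a, whose roles and order are not listed. How peaks were called, and whether reads were shifted to the Tn5 cut, is not given in the sources used here. The deposited value is a score: by its values, a read count that the authors scaled per library and rounded, so a count test was not used. The deposited fraction is the share of a region inside the gene body. Depth was estimated from gaps in the whole numbers. The misfit of this estimate, relative to no scaling, ran from 0.023 in LD replicate 2 to 0.59 in WT replicate 3. It was 0.21 in PTC2 replicate 1 and 0.36 in PTC1 replicate 3.

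Values were put on the log2 scale after adding 1, and limma 3.58.1 (R 4.3.3) fitted them with a mean per group over all 12 libraries (8 residual degrees of freedom) and an empirical Bayes trend. Regions with a mean of at least 5 were tested (81985, with 10 left out), and adjusted p-values are Benjamini-Hochberg over all of them. The same kind of limma fit was tested on simulated counts for PTC1 against WT only, and the principle of local centring on a simulated block shift. The other comparisons, the loess normalization and the ratio test were not tested in this way. Libraries with the same replicate number were only weakly alike in their deviations, and the main fit held no term for the number. The genes and lists were chosen with earlier results of these data known. Named genes were all 10 genes, and per mutant up to 3 higher and 3 lower list genes with the lowest adjusted p. Alternatives were other scalings, centring on the chromosome or on surrounding regions, another pseudocount (10), no filter, only the groups compared, no trend, a replicate block, sums over regions of a gene, and each library left out.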

Additional observations from a re-analysis of the deposited data

How the results depend on the processing

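The number of the 10 genes called was 5 in PTC1 against WT and became 3 with libraries scaled to the same median, 3 centred on the chromosome, 0 on regions within 1 Mb (by limma, with none of the 9 genes that had such a level under an unadjusted p of 0.05), 2 within 5 Mb, a window added after seeing the data, and 1 with no trend. It was 3 in PTC2 and became 5 with the same median and 1 with no trend, and 3 in LD, where it became 5 with the same median, on the chromosome and within 5 Mb. It was 5 for the mean of the premature stop lines against LD and 9 with the same median, and 3 for PTC1 against PTC2 and 1 with no trend. Leaving out 1 library gave 3 to 6 in PTC1 and 0 to 4 in PTC2, where without WT replicate 3 none was called by limma and 4 had an unadjusted p under 0.05, and without PTC2 replicate 1 there was 1. Under settings not given here the number stayed within 1.5 times, but the genes could differ. In PTC2, centring on the chromosome ended all 3 calls (Actr2 0.03, Arpc5 0.05 and Diaph1 0.12) and made calls at Arpc1b and Wasf2, and within 1 Mb the calls were Arpc1b and Diaph3. Between PTC1 and PTC2, loess ended the calls at Arpc1b and Diaph1 and made calls at Arpc2, Wasl and Diaph3. With the same median, the median change of all regions was 0.11 in PTC2 and -0.10 in PTC1 against PTC2. In the main fit these medians were 0.02 and -0.0023.

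Between groups, deviations of libraries with the same replicate number correlated only weakly, at -0.00443 to 0.0447, beside -0.0396 to 0.0222 for different numbers. Yet 11 of 12 libraries correlated best with their own number. With a replicate block the counts were 5, 3, 3, 5 and 4 in the order above. Under the 11 alternatives and 12 fits with 1 library left out, 60 start site values changed sign with no call on either side.

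Values called with or without centring, or with or without loess, reversed as follows. On the chromosome, these were in PTC1 Actr2 (-0.0029), Wasl (-0.14) and Diaph1 (0.093), and in PTC2 Diaph1 (0.12). On regions within 1 Mb, they were in PTC1 Actr2 (-0.048), Diaph1 (0.045) and Diaph3 (-0.086), in PTC2 Arpc5 (-0.0097) and the region inside Arpc1b (0.17), and in LD Actr3 (0.17), Arpc1b (0.16) and Diaph3 (0.0403). They were also Actr3 (-0.14) and the region inside Arpc5 (0.27) against LD, and Arpc5 (0.0057), Diaph1 (0.086), Diaph3 (-0.29) and the region inside Arpc5 (0.049) between PTC1 and PTC2. Within 5 Mb, they were in PTC1 Actr2 (-0.021), Actr3 (-0.24), Arpc2 (-0.15), Arpc5 (0.087), Diaph1 (0.056) and Diaph3 (-0.35), in PTC2 Diaph1 (0.074), and in LD Diaph3 (0.47). They were also Actr3 (-0.20), Diaph3 (-0.33) and the region inside Arpc5 (0.33) against LD, and Wasl (-0.20), Diaph3 (-0.98) and the region inside Arpc5 (0.032) between PTC1 and PTC2. After loess, Arpc5 against LD was -0.14. The cause was not tested. Wasl had 16 other regions within 1 Mb and got no value there. An estimated depth of 25 to 44.97 M reads in regions limits the regions with low values, such as those inside Actr2 and Arpc3. By these estimates all PTC2 libraries were deeper than every other library. The gap was narrow, with at least 35.81 M in PTC2 and up to 35.14 M in PTC1. The part of depth in the PTC2 changes was not tested.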
